A study of Homo sapiens with 6 samples.

Results

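The genes described here encode the subunits, caps and assembly factors of the proteasome. They were taken as the protein-coding genes whose symbols have the form PSMA to PSMG followed by a number, which gave 48 genes of the 62700 gene IDs in each count table. Of the 48, 46 had enough counts to be tested. RNA was sequenced from OVCAR8, an established human ovarian carcinoma cell line of WT genotype, as 3 Leptin libraries and 3 Control libraries. After a night without serum, Leptin cells were given leptin, a hormone of fat tissue, for 24 h at 100 ng/ml, and Control cells were given PBS. All the libraries come from 1 cell line kept without serum, and the labels name no separate cultures for the replicates. The p-values therefore reflect only how much these libraries vary, and that variation may be technical. The stated aim was a search for markers of stemness that respond to leptin.

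The proteasome is the main protease of the cytosol and nucleus and degrades proteins tagged with ubiquitin. Its 20S core is a stack of rings: outer alpha rings gate the entrance, and inner beta rings carry the catalytic sites for chymotrypsin-like, caspase-like and trypsin-like cleavage. The 19S cap recognises ubiquitin, removes it, and unfolds and threads substrates with a ring of ATPases. After interferon signals the catalytic beta subunits can be replaced by the immunoproteasome subunits PSMB8, PSMB9 and PSMB10, which favour peptides for MHC class I.

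Among the genes of the 19S cap, PSMC6, PSMD1 and PSMD11 fell in Leptin cells. Of 17 tested 19S genes, 3 fell (17.6%, against 4.09% of all tested genes) and 0 rose (against 5.71%). Of the 17, 16 had a negative log2 fold change (Leptin over Control, 94.1%, against 49.2% of all tested genes), with a median of -0.21. All 17 also lay below the Control mean in Control replicate 2 and above it in Control replicate 3. No gene of the 14 tested core genes passed in edgeR, DESeq2 or limma-voom. In edgeR 3 had an unadjusted p under 0.05, where all tested genes gave 27.6%. Of the 14, 10 were negative (PSMA7 as well under upper-quartile scaling), and the median was -0.17. The 3 tested immunoproteasome genes had positive log2 fold changes with a median of 1.10. In edgeR 0 of them passed and 3 had an unadjusted p under 0.05, 2 passed in DESeq2 and 0 in limma-voom, and Leptin replicate 1 lay near the Control level. A pair of genes outside the core and the 19S cap fell, the cap gene PSME3 and the assembly chaperone gene PSMD5, and the assembly chaperone gene PSMG4 rose. A gene passed where edgeR's quasi-likelihood test, adjusted over 15685 genes, gave a value under 0.05.

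Over the 46 tested proteasome genes, 5 fell (10.9%) and 1 rose (2.17%). Over all 15685 tested genes, 4.09% fell and 5.71% rose, 9.81% in either direction. The log2 fold change was negative for 32 of the 46 (69.6%), against 49.2% of all tested genes. The median of the 46 was -0.15, against 0.01 for all tested genes, and their quartiles were -0.32 and 0.06. All 3 Leptin libraries lay below all 3 Control libraries for 17 proteasome genes (37.0%, background 16.2%) and above them for 4 (8.70%, background 16.0%). Over tested protein-coding genes these shares were 17.8% and 17.0%. The median level of the proteasome genes was 118 CPM, against 19.4 CPM for all tested genes. Higher counts carry less counting noise, and no background of equal level was set beside these shares. At an unadjusted p under 0.05 there were 19 proteasome genes, against 27.6% of all tested genes. In RNA from a whole culture, fewer cells of a kind and less RNA per cell cannot be told apart.

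**Figure D1:**
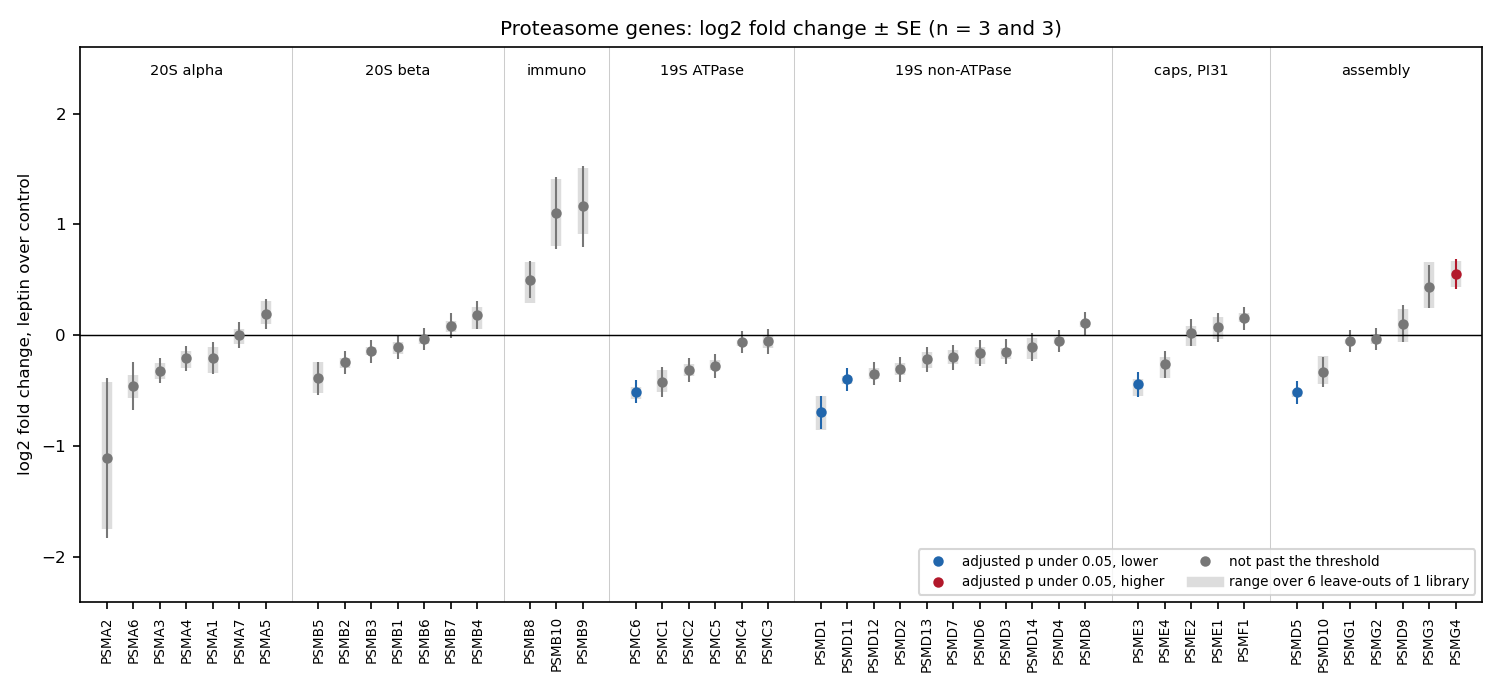
Log2 fold change (Leptin over Control) of the 46 tested proteasome genes, grouped by role, with error bars of 1 standard error and grey bars for the range over the 6 leave-outs of 1 library. The 19S genes lie mostly below 0, PSMB8, PSMB9 and PSMB10 lie above 0, blue points mark the 5 genes that fell and the red point the 1 that rose.

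The libraries held between 15609425 and 18577775 counts. Leptin replicate 1 was unlike both the Control libraries and its own group. Its score on the main principal component of log2 CPM (49.6% of the variance) was -2.15, against 46.3 and 39.6 for Leptin replicates 2 and 3 and -31.0 to -23.6 for the Control libraries. On the next component it scored -40.0, against 19.6 and -6.13 for Leptin replicates 2 and 3 and 5.95 to 12.9 for the Control libraries. Without Leptin replicate 1, 12 proteasome genes were lower and 6 higher, but the background then rose to 29.6% of 16101 tested genes (13.5% lower, 16.0% higher). The ovarian lineage marker PAX8 averaged 364 ± 5.48 CPM in Leptin and 365 ± 8.84 CPM in Control libraries (SD, n = 3 each), and the keratin gene KRT8 averaged 2321 ± 151 CPM in Leptin and 2138 ± 116 CPM in Control libraries. Of the 8 tested genes among 10 ovarian carcinoma markers, 6 had a positive log2 fold change (median 0.21), and KRT19 was the 1 past the threshold in edgeR. The keratin gene KRT7 had 283, 744 and 615 CPM in Leptin and 281, 355 and 360 CPM in Control libraries, with Leptin replicate 1 inside the Control range (0.72 ± 0.30, edgeR adjusted p = 0.166). EPCAM, WT1 and CDH1 averaged 5.48, 2.98 and 0.731 CPM in Leptin and 3.98, 2.39 and 0.247 CPM in Control libraries and did not pass. MUC16 and MSLN averaged below 1 CPM in both groups. The epithelial keratin gene KRT19 fell to 38.7 ± 0.967 CPM in Leptin, against 102 ± 9.63 CPM in Control libraries (edgeR adjusted p = 0.000139). Of 8 fibroblast markers COL1A1 held most counts, with 421 ± 78.0 CPM in Leptin and 562 ± 100.3 CPM in Control libraries. Its part in the results was not tested.

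Levels of different genes can be compared only per length, here in TPM computed from the deposited counts and exon lengths. The beta ring gene PSMB3 averaged 1096 ± 55.1 TPM in Leptin and 1251 ± 46.9 TPM in Control libraries, and PSMB4 averaged 1067 ± 122 TPM in Leptin and 973 ± 25.2 TPM in Control libraries (SD, n = 3 each). The alpha ring gene PSMA7 averaged 916 ± 63.9 TPM in Leptin and 944 ± 49.6 TPM in Control libraries. These were the highest levels, and the Leptin values of PSMB3 and PSMB4 lay within their spread of each other. PSMA6 had the second lowest level of the tested genes, with 2.45 ± 0.358 TPM in Leptin and 3.47 ± 0.534 TPM in Control libraries, and PSMA2 the lowest, with 0.175 ± 0.134 TPM in Leptin and 0.411 ± 0.290 TPM in Control libraries. Such low values understate the transcripts. Read pairs over exons of more than 1 annotated gene were not counted, and overlapping genes cover 97.1% of the coding bases of PSMA2, 88.6% of PSMA1 and 70.4% of PSMA6. For PSMD9, PSMB10 and PSMC1 the covered share was 58.7%, 58.3% and 47.7%, so that their levels are also understated. PSMA6 shares sequence with the processed pseudogene PSMA6P1, which held 48.3 counts per library beside 80 for PSMA6 itself, so the value of PSMA6 is uncertain on this ground too.

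**Figure D2:**
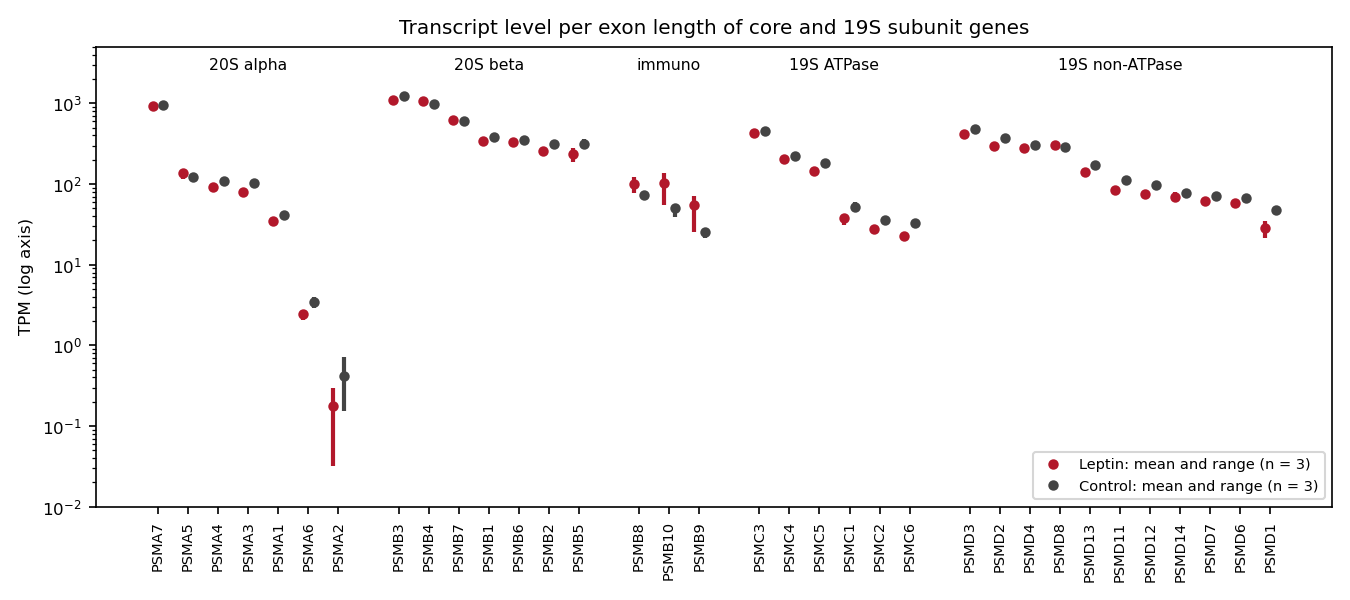
Mean level of the tested core, immunoproteasome and 19S genes in TPM on a log axis, Leptin left of Control for each gene, with bars from the lowest to the highest library. PSMA2 and PSMA6, most of whose coding bases lie in other annotated genes too, have the lowest levels, and PSMB3, PSMB4 and PSMA7 the highest.

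The alpha ring forms the outer faces of the core and binds the caps. Of its 7 tested genes 0 passed in edgeR, and 1 had an unadjusted p under 0.05, where all tested genes gave 27.6%. Of the 7, 5 were negative (71.4%, against 49.2% of all tested genes), and the median log2 fold change was -0.21. PSMA3 came nearest to the threshold, with 57.7, 60.3 and 67.9 CPM in Leptin libraries and 84.0, 72.9 and 74.7 CPM in Control libraries. All the Leptin libraries lay below all the Control libraries, and the log2 fold change was -0.32 ± 0.11 (SE, edgeR adjusted p = 0.0933). PSMA6 had 4.44, 4.08 and 3.50 CPM in Leptin and 4.64, 5.65 and 6.24 CPM in Control libraries, also without overlap (-0.46 ± 0.22, edgeR adjusted p = 0.202). PSMA4 overlapped between the groups, with 172, 154 and 155 CPM in Leptin and 202, 163 and 189 CPM in Control libraries (edgeR adjusted p = 0.270). PSMA7, PSMA5, PSMA1 and PSMA2 had log2 fold changes of 0.00 (-0.01 under upper-quartile scaling), 0.19, -0.20 and -1.11, and PSMA2 rested on 1 to 24 counts per library. PSMA8, an alpha subunit gene known from testis, had 3 counts in Leptin replicate 1 and 0 in every other library. It was not tested.

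The constitutive beta ring holds the catalytic subunits PSMB5, PSMB6 and PSMB7 and the structural subunits PSMB1 to PSMB4. Of its 7 genes 0 passed in edgeR, and 2 had an unadjusted p under 0.05, where all tested genes gave 27.6%. Of the 7, 5 were negative (71.4%, against 49.2% of all tested genes), and the median log2 fold change was -0.10. For 3 of the 7 all Leptin libraries lay below all Control libraries (42.9%, against 16.2% of all tested genes). PSMB5, which carries the chymotrypsin-like site, had 106, 71.7 and 94.9 CPM in Leptin libraries and 112, 111 and 134 CPM in Control libraries. The groups did not overlap, the log2 fold change was -0.39 ± 0.15, and it did not pass (edgeR adjusted p = 0.118). PSMB2 had 287, 294 and 304 CPM in Leptin and 370, 324 and 354 CPM in Control libraries, also without overlap (-0.24 ± 0.11, edgeR adjusted p = 0.167). PSMB6, with the caspase-like site, had 116, 118 and 128 CPM in Leptin and 126, 117 and 128 CPM in Control libraries, and the groups lay across each other (-0.03 ± 0.10, edgeR adjusted p = 0.869). PSMB7, with the trypsin-like site, had 260, 296 and 287 CPM in Leptin and 277, 243 and 274 CPM in Control libraries (0.09 ± 0.11, edgeR adjusted p = 0.649). Of the structural genes, PSMB4 was the 1 with a positive log2 fold change, with 506, 547 and 668 CPM in Leptin and 517, 493 and 507 CPM in Control libraries (0.18 ± 0.13, edgeR adjusted p = 0.386). PSMB1 and PSMB3 had log2 fold changes of -0.10 and -0.15, and the groups overlapped for PSMB1 but not for PSMB3.

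**Figure D3:**
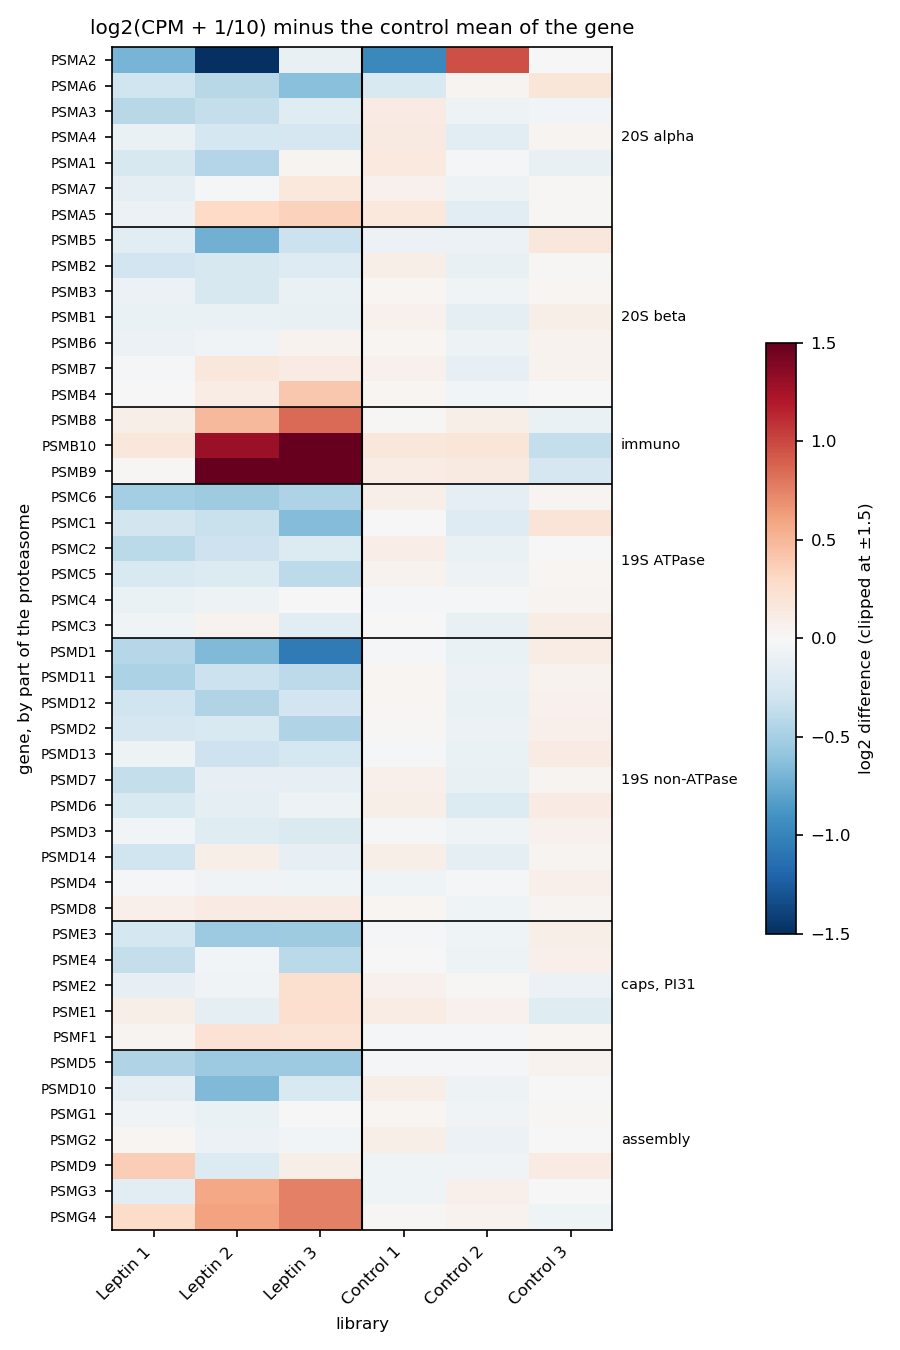
Difference of each library from the Control mean, on the log2 scale and clipped in the colours, for each tested proteasome gene (rows, grouped by role), with the Leptin libraries left of the Control libraries. The 19S rows are below 0 in most cells of all the Leptin libraries, while PSMB9 and PSMB10 are above 0 in Leptin replicates 2 and 3 and near 0 in Leptin replicate 1.

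The immunoproteasome genes stood apart in Leptin replicates 2 and 3. PSMB9 replaces PSMB6 and had 21.0, 58.2 and 60.9 CPM in Leptin replicates 1, 2 and 3, against 22.4, 22.7 and 17.3 CPM in Control libraries. Leptin replicate 1 lay within the Control range, and the log2 fold change of 1.16 ± 0.36 did not pass (edgeR adjusted p = 0.0838). PSMB10 replaces PSMB7 and had the same pattern, with 22.0, 48.0 and 57.8 CPM in Leptin libraries and 22.0, 22.2 and 15.3 CPM in Control libraries (1.10 ± 0.32, edgeR adjusted p = 0.0670). PSMB8 replaces PSMB5 and had 66.3, 86.9 and 112 CPM in Leptin libraries, all above the 63.2, 65.9 and 57.9 CPM of the Control libraries. Its log2 fold change of 0.50 ± 0.17 did not pass (edgeR adjusted p = 0.0763). Without Leptin replicate 1, where 29.6% of tested genes were called, the edgeR adjusted p was 4.6e-07 for PSMB9, 4.7e-06 for PSMB10 and 0.000366 for PSMB8. None of these genes passed when any other single library was left out. The edgeR adjusted p was then 0.157 to 0.243 for PSMB9, 0.125 to 0.201 for PSMB10 and 0.152 to 0.267 for PSMB8. With DESeq2, which called 14.6% of the genes it tested, PSMB8 (adjusted p = 0.0354) and PSMB10 (0.00130) passed and PSMB9 (0.0802) did not. PSMB11, the thymus-specific beta subunit gene, had 0 counts in all 6 libraries. A limit of 3 counts equals 0.158 to 0.200 CPM and covers counting error only.

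The shares within each catalytic pair show the same split of libraries. Of the summed TPM of PSMB9 and PSMB6, PSMB9 made up 7.30, 17.6 and 17.1% in Leptin replicates 1, 2 and 3, and 7.18, 7.79 and 5.56% in Control libraries. PSMB8 made up 21.7, 35.1 and 34.4% of its pair with PSMB5 in Leptin libraries, and 20.1, 20.8 and 16.1% in Control libraries. PSMB10 made up 8.51, 15.1 and 18.1% of its pair with PSMB7 in Leptin libraries, and 8.04, 9.16 and 5.78% in Control libraries. In each pair Leptin replicates 2 and 3 lay above all the other libraries, while Leptin replicate 1 lay inside the Control range for PSMB10 and PSMB9 and slightly above it for PSMB8. The size of a share depends on annotated exon length, 3480 bases for PSMB8 and 1549 for PSMB5. In plain counts PSMB8 stood at 0.623, 1.21 and 1.18 times PSMB5 in Leptin and 0.566, 0.591 and 0.432 times in Control libraries. The shares of PSMB10 are understated, since overlapping genes cover 58.3% of its coding bases. The summed TPM of the immunoproteasome genes was 157, 291 and 328 in Leptin libraries and 156, 161 and 129 in Control libraries, while the 20S core summed to 5083, 5163 and 5381 TPM in Leptin and 5657, 5180 and 5690 TPM in Control libraries. Immune cells also express these subunits, and the 10 immune cell markers summed to 0.119 to 0.267 CPM in Leptin and 0.0621 to 0.475 CPM in Control libraries, with PTPRC, CD3E, MS4A1, AIF1 and ITGAM at 0 in every library.

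**Figure D4:**
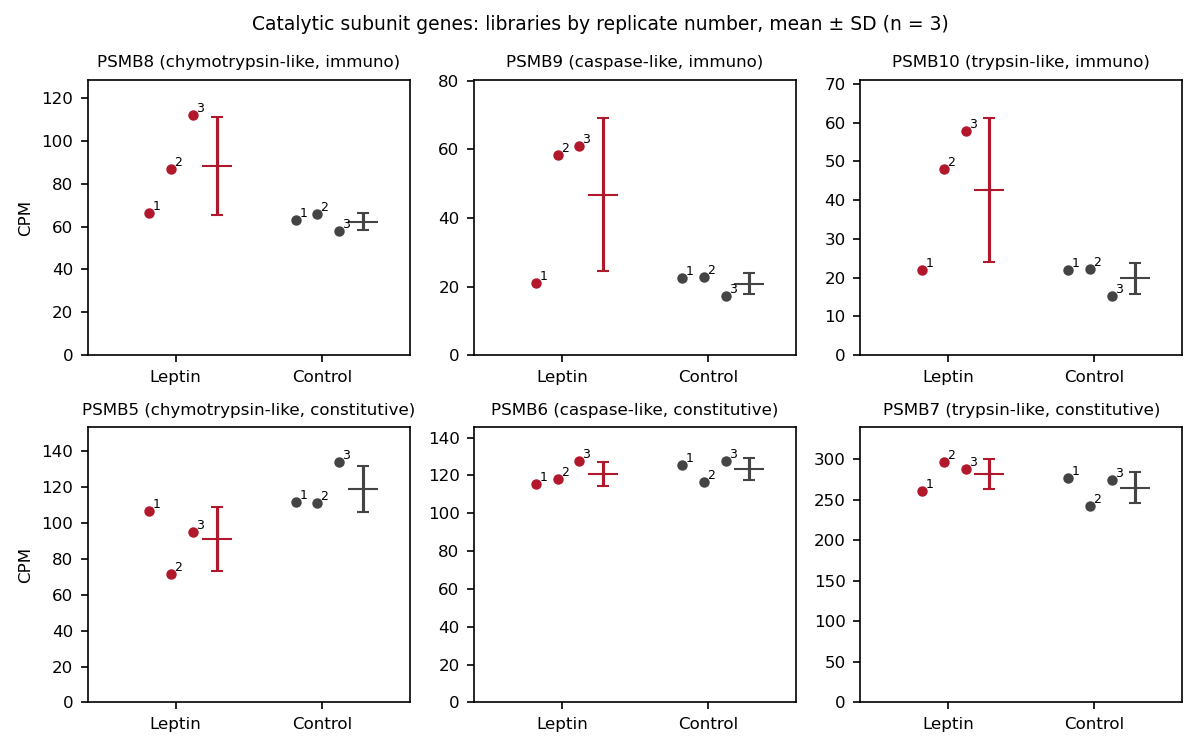
CPM per library of the genes of the 3 catalytic pairs, Leptin left of Control, with the group mean and SD (n = 3) beside the points. The upper row holds PSMB8, PSMB9 and PSMB10, and the lower row PSMB5, PSMB6 and PSMB7. In the upper row Leptin replicates 2 and 3 lie above every Control library, and Leptin replicate 1 lies at the Control level.

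PSMB8 and PSMB9 are neighbours in the MHC class II region, at 32840717 to 32844679 (minus strand) and 32844136 to 32859851 (plus strand) on chromosome 6 (hg38), and PSMB10 lies on chromosome 16 at 67934506 to 67936864 (minus strand). PSMB8 shares 602 exonic bases (17.3%) with PSMB8-AS1 and 139 with PSMB9, both on the opposite strand. Read pairs over such shared bases were not counted. PSMB10 shares 640 exonic bases with another annotated gene of its strand, so its values and those of PSMB8 are uncertain to that extent. Interferon acts on such genes through the interferon-stimulated response element (ISRE), whose core was searched as GAAA, any 2 bases and GAAA again on both strands in RefSeq promoter windows (GRCh38.p14, 250 bases before to 50 after each start site). Windows were found for 42 of the 48 genes. The letters occurred in the windows of 7 of these (16.7%), PSMA4, PSMB4, PSMB8, PSMB10, PSME1, PSME2 and PSMG4, against 3.84% of tested genes and 4.38% of all genes with a window. In 5 of the 7 the match was GAAAGCGAAA or its reverse complement. Those windows are shown because they set the subunits PSMB8 and PSMB10 beside the cap genes PSME1 and PSME2 and the chaperone gene PSMG4, which share the letters. Each runs 5′ to 3′ on the gene's strand from 60 bases before the start site, with the ISRE core in capitals.
PSMB8 (chr6:32844038-32844107, minus strand): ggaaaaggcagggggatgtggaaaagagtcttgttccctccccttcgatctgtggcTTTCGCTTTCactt
PSMB10 (chr16:67936841-67936910, minus strand): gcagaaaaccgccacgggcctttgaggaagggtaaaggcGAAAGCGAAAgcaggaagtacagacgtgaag
PSME1 (chr14:24136134-24136213, plus strand): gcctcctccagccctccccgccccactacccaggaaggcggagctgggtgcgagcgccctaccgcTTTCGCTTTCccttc
PSME2 (chr14:24146601-24146670, minus strand): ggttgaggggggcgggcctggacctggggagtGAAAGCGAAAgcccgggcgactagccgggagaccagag
PSMG4 (chr6:3258887-3258956, plus strand): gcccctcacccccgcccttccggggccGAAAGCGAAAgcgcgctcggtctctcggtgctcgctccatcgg

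Genes with these letters had different values. PSME1 and PSME2, the genes of the PA28 cap that also responds to interferon, stood near the Control level. PSME1 had 94.0, 80.6 and 105 CPM in Leptin and 95.8, 92.4 and 78.0 CPM in Control libraries (0.07 ± 0.13, edgeR adjusted p = 0.757). PSME2 had 37.4, 39.2 and 48.1 CPM in Leptin and 42.9, 41.3 and 38.5 CPM in Control libraries (0.03 ± 0.12, edgeR adjusted p = 0.921). The groups overlapped for both. The window of PSMB9 held no ISRE core. It held 1 antioxidant response element core (TGACNNNGC, here on the minus strand) and 1 CCAAT box, both in capitals. Its 250 bases before the start site are shown because the start of the peptide transporter gene TAP1 lies 488 bases away on the opposite strand.
PSMB9 (chr6:32853942-32854191, plus strand): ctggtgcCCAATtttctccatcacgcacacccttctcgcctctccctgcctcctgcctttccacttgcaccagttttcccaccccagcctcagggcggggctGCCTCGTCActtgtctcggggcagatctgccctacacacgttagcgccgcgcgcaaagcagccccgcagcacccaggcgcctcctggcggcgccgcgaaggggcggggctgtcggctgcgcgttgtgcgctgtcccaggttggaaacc

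Of 15 tested genes of interferon-linked control and peptide loading, 2 rose (13.3%, against 5.71% of all tested genes) and 0 fell in edgeR, and 5 had an unadjusted p under 0.05, where all tested genes gave 27.6%. The median log2 fold change was 0.21, with 11 positive and 4 negative values. In DESeq2 4 passed, 3 higher (IRF1, NLRC5 and TAP1) and 1 lower (JAK1), and in limma-voom 2. TAP1, the neighbour of PSMB9, had 70.5, 147 and 140.1 CPM in Leptin replicates 1, 2 and 3 and 68.3, 74.0 and 68.6 CPM in Control libraries. It had the split of PSMB9, with Leptin replicate 1 inside the Control range, and did not pass in edgeR (0.76 ± 0.23, edgeR adjusted p = 0.0636), though it did in DESeq2 (adjusted p = 0.00623). JAK1, a kinase of the interferon receptors named after its values were seen, had 325, 321 and 279 CPM in Leptin and 398, 386 and 368 CPM in Control libraries, without overlap (-0.32 ± 0.11, edgeR adjusted p = 0.0918, DESeq2 adjusted p = 0.0420). IRF1, a transcription factor that activates immunoproteasome genes, rose. It had 50.7, 95.7 and 118 CPM in Leptin libraries and 42.5, 42.8 and 42.3 CPM in Control libraries (1.05 ± 0.25, edgeR adjusted p = 0.0321). All the Leptin libraries lay above the Control libraries, and Leptin replicate 1 lay nearest to them. NLRC5, a transactivator of MHC class I genes, rose with another pattern: 42.7, 38.4 and 39.9 CPM in Leptin and 28.9, 27.1 and 28.8 CPM in Control libraries (0.51 ± 0.11, edgeR adjusted p = 0.0177), with Leptin replicate 1 the highest. IRF1 lost its call without Control replicates 1, 2 and 3 (edgeR adjusted p = 0.126, 0.0951 and 0.120) and without Leptin replicates 2 and 3 (0.132 and 0.0999). NLRC5 lost its call without Control replicates 1, 2 and 3 (0.106, 0.0925 and 0.100, edgeR) and without Leptin replicate 3 (0.0624), and neither passed with the GC trend removed (0.0577 for IRF1, 0.0775 for NLRC5, edgeR).

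**Figure D5:**
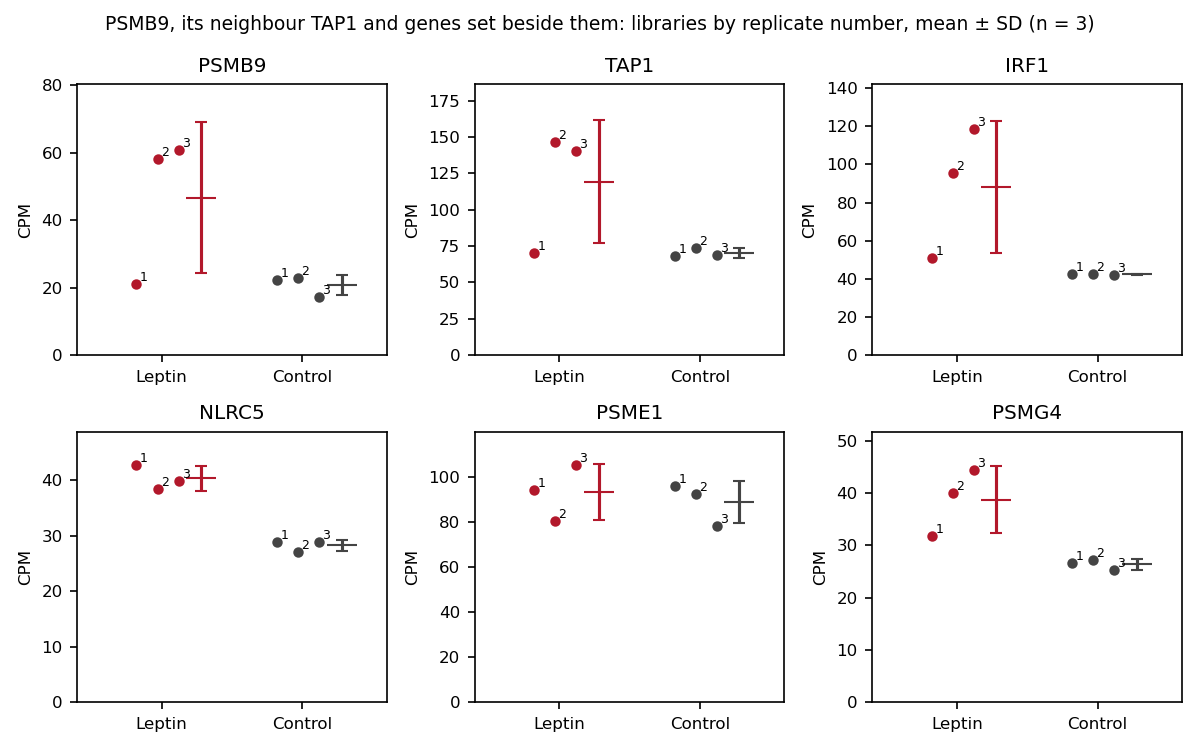
CPM per library of PSMB9, its neighbour TAP1 and genes set beside them, Leptin left of Control, with the group mean and SD (n = 3) beside the points. PSMB9 and TAP1 have Leptin replicate 1 at the Control level, IRF1 has it just above, and NLRC5 has all the Leptin libraries close together.

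The 19S cap is built from 6 ATPases, which form the ring that unfolds substrates, and 11 non-ATPase subunits. The typical difference of its genes was similar in each Leptin library. The median difference from the Control mean over the 17 genes was -0.25, -0.20 and -0.22 in Leptin replicates 1, 2 and 3 on the log2 scale, and 0.03, -0.09 and 0.06 in Control replicates 1, 2 and 3. Over all tested genes these medians lay between 0.00 and 0.01. All 17 genes of the cap lay below the Control mean in Control replicate 2 and above it in Control replicate 3. The genes thus moved together among Control libraries too, so their signs are not separate observations. The summed TPM of the 17 genes was 2770, 2791 and 2497 in Leptin libraries and 3066, 2897 and 3262 in Control libraries, without overlap. For 9 of the 17 genes the Leptin libraries lay below all Control libraries (52.9%, against 16.2% of all tested genes), and for 1, PSMD8, above them (5.88%, against 16.0%). Of the 14 tested core genes 5 lay below in the same way (35.7%) and 0 above. A difference between the 19S cap and the core was not tested, since subunits are not replicates. Median GC content was 47.9% for the 19S genes, 44.9% for the core genes and 48.4% for all tested genes.

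All 6 ATPase genes had negative log2 fold changes, with a median of -0.29, and 1 fell (16.7%, against 4.09% of all tested genes). PSMC6 had 42.2, 41.4 and 43.5 CPM in Leptin libraries and 63.8, 54.9 and 61.8 CPM in Control libraries. The Leptin libraries lay close together and well below the Control libraries, at 0.704 times the Control level (log2 fold change -0.51 ± 0.11, edgeR adjusted p = 0.0169). PSMC6 lies on chromosome 14 at 52707178 to 52728590 (hg38, plus strand). PSMC1 had 64.9, 62.1 and 49.7 CPM in Leptin and 78.5, 68.5 and 89.3 CPM in Control libraries (-0.42 ± 0.14, edgeR adjusted p = 0.0745). PSMC2 had 56.7, 60.1 and 64.7 CPM in Leptin and 80.1, 69.8 and 75.0 CPM in Control libraries (-0.31 ± 0.11, edgeR adjusted p = 0.0899). The groups overlapped for neither, and neither passed in edgeR, though PSMC1 did in DESeq2 (adjusted p = 0.0484). PSMC5 was lower in every Leptin library but did not pass (-0.27, edgeR adjusted p = 0.123), and PSMC3 and PSMC4 had values of -0.05 and -0.06 with overlapping groups. PSMC6 did not pass in edgeR without Control replicate 1 (adjusted p = 0.122), Control replicate 3 (0.109) or Leptin replicate 3 (0.0588), nor with the GC trend removed (0.0558).

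Of the 11 non-ATPase genes 2 fell (18.2%, against 4.09% of all tested genes) and 10 were negative (90.9%, against 49.2%). The median log2 fold change was -0.20. PSMD1, the large scaffold subunit of the base, had the largest difference in the cap, with 137, 117 and 88.6 CPM in Leptin libraries and 182, 173 and 199 CPM in Control libraries. Leptin stood at 0.619 times the Control level without overlap (-0.69 ± 0.15, edgeR adjusted p = 0.0193). PSMD11, a lid subunit whose level is tied to proteasome activity in stem cells, had 142, 157 and 150.5 CPM in Leptin and 201, 186 and 205 CPM in Control libraries. The groups did not overlap, and the log2 fold change was -0.40 ± 0.10 (edgeR adjusted p = 0.0379). PSMD1 lies on chromosome 2 at 231056845 to 231173116 and PSMD11 on chromosome 17 at 32444379 to 32483319 (hg38, both plus strand). PSMD12, another lid subunit, had 105, 93.9 and 105 CPM in Leptin and 131, 120.2 and 134 CPM in Control libraries. It lay just outside the threshold in edgeR (-0.34 ± 0.10, edgeR adjusted p = 0.0607) and passed in DESeq2 (adjusted p = 0.0332). PSMD2, the other large base scaffold, had lower values in every Leptin library too (-0.31, edgeR adjusted p = 0.110). The ubiquitin receptor PSMD4 and the deubiquitinase PSMD14 had values of -0.05 and -0.10 with overlapping groups (PSMD14 0.07 with the GC trend removed), and PSMD3, PSMD6, PSMD7 and PSMD13 lay between -0.21 and -0.15. PSMD8 was the 1 gene of the cap with a positive value, with all the Leptin libraries above the Control libraries (0.11, edgeR adjusted p = 0.542).

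The calls on PSMD1 and PSMD11 depended on single libraries. PSMD1 did not pass without Control replicates 1, 2 or 3 (edgeR adjusted p = 0.106, 0.0694 and 0.113) or Leptin replicate 3 (0.0613). PSMD11 did not pass without Control replicates 1, 2 or 3 (edgeR adjusted p = 0.186, 0.106 and 0.193) or Leptin replicate 3 (0.0938). After removal of GC trends PSMD1 passed (edgeR adjusted p = 0.0369), PSMD11 did not (0.0683), 15 of the 17 genes were negative and their median was -0.17. That setting called 5.53% of all tested genes.

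The alternative caps and the inhibitor gave 1 gene that fell among 5, with a median log2 fold change of 0.03. PSME3, which encodes the nuclear PA28 gamma cap, had 214, 176 and 178 CPM in Leptin libraries and 252, 245 and 273 CPM in Control libraries. The groups did not overlap (-0.44 ± 0.12, edgeR adjusted p = 0.0387). PSME3 lies on chromosome 17 at 42824385 to 42843760 (hg38, plus strand). It did not pass without Control replicates 1, 2 and 3 (edgeR adjusted p = 0.160, 0.113 and 0.196), without Leptin replicates 2 and 3 (0.0797 and 0.126) and with the GC trend removed (0.0524). PSME4, the PA200 cap, overlapped between groups, with 55.0, 68.8 and 53.3 CPM in Leptin and 70.8, 67.0 and 74.3 CPM in Control libraries (-0.26 ± 0.12, edgeR adjusted p = 0.193). PSMF1, the inhibitor gene PI31, lay above all Control libraries in all Leptin libraries by a small margin, with 153, 172 and 171 CPM in Leptin and 147, 147 and 151 CPM in Control libraries (0.15 ± 0.10, edgeR adjusted p = 0.363).

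Assembly chaperones help the rings and the 19S base to form and leave the finished particle. Of 7 genes 1 rose (14.3%, against 5.71% of all tested genes) and 1 fell (14.3%, against 4.09%). The median log2 fold change was -0.03. PSMG4 encodes a chaperone of the alpha ring that works with PSMG3, and it had 31.8, 40.0 and 44.5 CPM in Leptin libraries, all above the 26.6, 27.3 and 25.2 CPM of the Control libraries (0.56 ± 0.14, edgeR adjusted p = 0.0297). PSMG4 shares 1388 exonic bases (13.3%) with SLC22A23 and 174 with TUBB2B, both on the opposite strand. Counting used no strand option, so the values of PSMG4 are uncertain to that extent. Its partner PSMG3 had 24.8, 42.0 and 47.2 CPM in Leptin and 26.7, 29.4 and 27.8 CPM in Control libraries. Leptin replicate 1 lay below every Control library and the others above, and PSMG3 did not pass (0.44 ± 0.20, edgeR adjusted p = 0.175). PSMG1 and PSMG2, the other chaperone pair, had values of -0.05 and -0.03.

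PSMD5, a chaperone of the 19S base, had 37.4, 35.0 and 34.9 CPM in Leptin libraries and 49.9, 50.4 and 53.0 CPM in Control libraries. Both groups were tight and well apart (-0.51 ± 0.10, edgeR adjusted p = 0.0144). PSMD10, another base chaperone, had 50.6, 35.2 and 47.5 CPM in Leptin and 59.2, 52.9 and 55.4 CPM in Control libraries. The groups did not overlap, and it did not pass (-0.33 ± 0.14, edgeR adjusted p = 0.150). For PSMD9, a further base chaperone, the value was 0.10 (edgeR adjusted p = 0.724). PSMG4 lies on chromosome 6 at 3231403 to 3303373 (plus strand) and PSMD5 on chromosome 9 at 120815496 to 120842951 (minus strand, hg38). PSMD5 lost its call without Control replicates 1, 2 and 3 (edgeR adjusted p = 0.0901, 0.0695 and 0.100) and Leptin replicate 3 (0.0588), and PSMG4 without Control replicates 1, 2 and 3 (0.142, 0.102 and 0.150, edgeR) and Leptin replicates 2 and 3 (0.0688 and 0.120). Both passed with the GC trend removed (edgeR adjusted p = 0.0460 for PSMD5, 0.0487 for PSMG4).

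Proteasome genes share a transcriptional control: when proteasome activity falls, the factor NFE2L1 (NRF1) is released and, with a small MAF partner, raises subunit genes through antioxidant response elements. Of 15 tested genes of this control 0 passed in edgeR and 5 had an unadjusted p under 0.05, while 3 passed in DESeq2 and 0 in limma-voom. Of all genes tested in edgeR, 9.81% passed and 27.6% had an unadjusted p under 0.05. DESeq2 called 14.6% of the genes it tested, and limma-voom 8.39%. Their median log2 fold change was 0.01. NFE2L1 had 518, 801 and 664 CPM in Leptin libraries, all above the 467, 511 and 482 CPM of the Control libraries (0.44 ± 0.15, edgeR adjusted p = 0.0878). The small MAF gene MAFG was also above every Control library, with 224, 297 and 323 CPM in Leptin and 204, 203 and 208 CPM in Control libraries (0.46 ± 0.14, edgeR adjusted p = 0.0579). VCP, the ATPase that extracts NFE2L1 from the membrane, had 692, 498 and 472 CPM in Leptin and 776, 762 and 787 CPM in Control libraries (-0.48 ± 0.15, edgeR adjusted p = 0.0637). Leptin replicate 1 lay nearest to the Control level for NFE2L1, MAFG and VCP. These were the 3 that passed in DESeq2 (adjusted p = 0.0319, 0.0165 and 0.0139). NFE2L2, the related NRF2 factor, had 93.7, 90.5 and 114 CPM in Leptin and 90.8, 83.3 and 80.0 CPM in Control libraries (0.23 ± 0.12, edgeR adjusted p = 0.239).

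The antioxidant response element core TGACNNNGC was found on either strand in the windows of 15 of the 42 proteasome genes (35.7%), against 19.3% of tested genes and 16.1% of all genes. PSMD1 and PSMD5, which fell, held TGACTGAGC from base 40 to 48 after the start and TGACACGGC from base -134 to -126 before it. PSMC6, PSMD11, PSME3 and PSMG4 were not among the 15. PSME3 and PSMG4 had a window, in which other motifs matched. PSMC6 and PSMD11 had no match of any motif searched. For them a missing window was not told apart from missing letters. The GAS element TTCNNNGAA, known from interferon-responsive promoters, was found for 8 of the 42 genes (19%, against 8.44% of tested genes), PSMB8, PSMB5 and PSME3 among them. The CCAAT box was found for 20 (47.6%, against 42.8%). No match of 1 motif overlapped a match of another. A match is a string of letters and was not tested for binding.

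Partners of the proteasome outside the symbol rule gave no call. Of 12 tested partners, which include the ubiquitin receptor ADRM1 and the assembly factor POMP, 0 passed in edgeR, DESeq2 or limma-voom. In edgeR 3 had an unadjusted p under 0.05, where all tested genes gave 27.6%, and the median log2 fold change was -0.11. POMP had 133, 113 and 126 CPM in Leptin and 170.1, 132 and 162 CPM in Control libraries (-0.32 ± 0.12, edgeR adjusted p = 0.124). USP14, a deubiquitinase of the 19S cap, had 108, 119 and 119 CPM in Leptin and 146, 131 and 136 CPM in Control libraries (-0.25 ± 0.10, edgeR adjusted p = 0.140). UCHL5, the other such enzyme, had 29.4, 30.9 and 30.5 CPM in Leptin and 37.0, 34.6 and 36.7 CPM in Control libraries (-0.26 ± 0.11, edgeR adjusted p = 0.145). Both were below every Control library in all the Leptin libraries. This held for 3 of the 12 partners (25.0%, against 16.2% of all tested genes). Of 12 tested ubiquitin and shuttle genes 1 rose (8.33%, against 5.71% of all tested genes) and 0 fell (against 4.09%) in edgeR. Their median log2 fold change was -0.15. DDI1 had 0 counts in every library. SQSTM1, which encodes the autophagy receptor p62, had 1077, 1863 and 1923 CPM in Leptin and 851, 955 and 891 CPM in Control libraries (0.85 ± 0.19, edgeR adjusted p = 0.0234). Leptin replicate 1 was again nearest to the Control level. SQSTM1 lost its call without Control replicates 1, 2 and 3 (edgeR adjusted p = 0.138, 0.0893 and 0.121), without Leptin replicates 2 and 3 (0.0795 and 0.105) and with the GC trend removed (0.0557). UBA6, a ubiquitin-activating enzyme, had 37.5, 42.8 and 36.2 CPM in Leptin and 52.6, 49.3 and 47.8 CPM in Control libraries (-0.36 ± 0.11, edgeR adjusted p = 0.0628). The shuttle gene UBQLN1 had 149, 154 and 139 CPM in Leptin and 183, 171 and 182 CPM in Control libraries (-0.28 ± 0.10, edgeR adjusted p = 0.109). The groups overlapped for neither. Of the 12 ubiquitin and shuttle genes, 4 lay below all Control libraries in Leptin (33.3%, against 16.2% of all tested genes) and 1 above (8.33%, against 16.0%).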

How the data were processed

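The deposited values are raw counts of read pairs per gene, 1 table per library, from directional libraries of total RNA per the labels' protocols. Per the file headers, the authors counted over exons of GENCODE 44 with featureCounts 2.0.1, without a strand option and without counting read pairs that map to several places or genes. Alignment with HISAT2 2.0.5 to hg38, featureCounts 1.5.0-p3 and DESeq2 are named per the submitters' processing notes, so the featureCounts versions differ between sources. No count fell on the 37 mitochondrial genes, and 0 columns held values of other samples. Symbols were matched for all 62700 IDs, and gene types came from GENCODE release 29 or RefSeq.

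All 6 libraries entered 1 model in edgeR 4.0.16 (R 4.3.3): filterByExpr (minimum count 10, minimum total 15), TMM scaling, robust quasi-likelihood fits, and Benjamini-Hochberg adjustment over 15685 genes with a threshold of 0.05. The common biological coefficient of variation was 0.150, and CPM uses TMM-scaled totals. TPM was computed from the counts and deposited exon lengths. The members and gene lists were chosen with earlier results of these data known. Full values are given for genes past the threshold, the catalytic pairs, PSME1, PSME2, up to 3 genes per subgroup or list with the smallest adjusted p, NFE2L1 and NFE2L2. Other genes, among them PSMB4 and the markers, were named for their role or place in a list. A result for 1 gene of the lists is not reported here.

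Libraries of 1 group differed beyond counting noise, with a chi-square per gene of 5.30 to 45.7. No pairing of the libraries by equal repeat number was seen. On counts simulated for this comparison, with 15384 genes tested, the edgeR model found 90 of 100 genes given a 2-fold change and 100 of 100 given a 4-fold change. It also called 9 that were given none. All simulated libraries had the same spread at a given expression level, and none stood apart as Leptin replicate 1 did. These counts therefore do not give the rate of detection in the real libraries. Alternatives were DESeq2 1.42.0, limma-voom (limma 3.58.1), RLE and upper-quartile scaling, other filters, an adjusted p under 0.01, a replicate block, a GC trend taken out of every library (lowess, span 0.3, gene GC content known for 97.2% of tested genes) and leaving out each library. Plots were made in matplotlib 3.10.9 (Python 3.11.15).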

Additional observations from a re-analysis of the deposited data

How the results depend on the processing

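As tested, 5 proteasome genes were lower and 1 higher, 3 of them in the 19S cap, 0 in the core and 0 in the immunoproteasome. DESeq2 (14.6% of genes called) gave 3 higher, 5 in the 19S cap and 2 in the immunoproteasome. Without a filter on low counts (7.42% called) there were 3 higher, 1 in the core and 1 in the immunoproteasome. With the GC trend removed (5.53% called) 2 were lower and 1 was in the 19S cap. At an adjusted p under 0.01 (1.75% called) there were 0 lower, 0 higher and 0 in the 19S cap. Over the 6 leave-outs the counts ranged from 0 to 12 lower, 0 to 6 higher, 0 to 8 in the 19S cap, 0 to 2 in the core and 0 to 3 in the immunoproteasome. The highest counts came without Leptin replicate 1 (29.6% called). Without Control replicates 1, 2 and 3 and without Leptin replicates 2 and 3 the background was 0.711, 2.25, 1.05, 4.84 and 1.66%. A leave-out has 1 library fewer. Other causes were not tested. Limma-voom, RLE and upper-quartile scaling and a filter at a mean of 1 CPM left each of these counts within 1.5 times the main count. None of the 6 called genes changed sign under these settings, while genes near 0 (PSMA7, PSMB1, PSMC3, PSMD14, PSME1, PSME2, PSMG1, PSMG2 and PSMD9) did under 1 or more. The median over the 46 tested genes stayed between -0.17 and -0.11.

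With the repeat number as a replicate block (8.31% called) 3 proteasome genes were lower: PSMD11 and PSME3 lost their calls (edgeR adjusted p = 0.0726 and 0.0585). With the replicate block and GC removal together (6.01% called) 1 was lower and 1 was in the 19S cap. Deviations of same-numbered libraries correlated at -0.05, 0.01 and -0.11, so no pairing by number was seen. With 3 libraries per group and Leptin replicate 1 apart, this check cannot exclude a pairing. TAP1, outside the proteasome genes, passed with the block (edgeR adjusted p = 0.0393). PSMA2, PSMA8 and PSMB11 had few or no counts, so a difference in them was not detectable here.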
